A study of Mus musculus with 9 samples.

Results

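The genes described are 70 ribosome biogenesis genes measured in a mouse bone marrow stromal cell line. They are the rows of the deposited expression table whose KEGG pathway names include ribosome biogenesis in eukaryotes and whose FPKM (read fragments per kilobase of exon, scaled to the depth of the library) was at least 1 in at least 3 of the 9 libraries. That rule kept 70 of the 78 annotated genes, among 10537 genes that passed the same level rule and were tested, of 21959 genes in the table. RNA was sequenced from mesenchymal stromal cells (MSCs) that the labels give as cell type BMMSC and line SV40, grown in medium with 10% fetal bovine serum. For 24 h the cells met the peritoneal interstitial fluid (PF) of mice treated with TNBS, a hapten used to induce colitis, for 3 days (TNBS PF), the PF of control mice (control PF), or phosphate-buffered saline (PBS). Each of these 3 groups had 3 libraries. All groups shared the line, the medium and the serum. The labels name neither the mouse strain, nor the number of fluid donors, nor whether libraries came from separate cultures, so the p-values below measure the spread between these libraries, which may be technical.

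Ribosome biogenesis starts in the nucleolus, where RNA polymerase I makes a long precursor that is modified, cut and folded while ribosomal proteins join it. Small nucleolar ribonucleoproteins (snoRNPs) of the box C/D and box H/ACA classes methylate and pseudouridylate the RNA. The small subunit processome builds the 40S precursor, another set of GTPases and ATPases builds the 60S precursor, and Ran with exportins carries both to the cytoplasm for the last steps. The pathway is known to scale with growth and with the activity of MYC.

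Recovered depths were 22.9 to 25.6 M (mega) assigned fragments in the TNBS PF libraries, 18.6 to 21.5 M in the control PF libraries and 17.9 to 20.3 M in the PBS libraries, so depth moved with the group. The member counts below are also given with all libraries thinned to a common 17.8 M fragments. All 10 stromal cell markers were tested, and their summed level was 944 to 975 FPKM in the TNBS PF libraries, 1040 to 1065 FPKM in the control PF libraries and 1067 to 1143 FPKM in the PBS libraries. These markers moved both ways between TNBS PF and control PF by the limma test described below. Cd44 and Vcam1 were higher (20% of the 10, against 5.15% of tested genes). Pdgfrb, Pdgfra, Ly6a and Col1a2 were lower (4 of 10, against 5.45% of tested genes). The log2 differences of the 10 markers lay between -0.39 (Pdgfrb) and 0.21 (Cd44). Vcam1 lost its call without TNBS PF 1, TNBS PF 3 or any 1 control PF library. In TNBS PF against PBS, 2 of the 10 were called higher and 5 lower, against 7.8% and 8.88% of tested genes. Cd44 was not among these, and was called lower in control PF against PBS. Of 17 markers of other cell types, 14 stayed under 1 FPKM in every library and Hbb-bs, a haemoglobin gene of red blood cells, was listed at 0 in all 9. Their summed level was 48.3 to 51.9 FPKM in the TNBS PF libraries, 40.2 to 42.3 FPKM in the control PF libraries and 42.8 to 45.6 FPKM in the PBS libraries. The mesothelial marker Msln made up most of that sum, with 39.1, 42.5 and 44.9 FPKM in the TNBS PF libraries, 35.3, 35.2 and 36.1 FPKM in the control PF libraries and 37.7, 37.3 and 39.4 FPKM in the PBS libraries. Krt19, an epithelial keratin, was at 6.06, 6.70 and 4.61 FPKM in the TNBS PF libraries, at 4.21, 2.96 and 3.33 FPKM in the control PF libraries and at 4.83, 3.42 and 3.21 FPKM in the PBS libraries. Both passed the test between TNBS PF and control PF, in the direction of the members that rose, though Krt19 lost its call without TNBS PF 1, TNBS PF 2, control PF 2 or control PF 3; their part in the member results was not tested. In bulk RNA, fewer cells of a type and less RNA per cell cannot be told apart.

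Promoter sequences were available from RefSeq (GRCm38.p6, 250 bases before to 50 after each start) for 58 of the 70 members, which have 65 promoters. The E-box CACGTG, the site that MYC and related factors bind, was found in 12 of them (18.5%), against 10.2% of the promoters of tested genes and 7.15% of all 32851 promoters. CCGGAAG, the core that ETS factors bind, was found on either strand in 25 member promoters (38.5%), against 18.7% of those of tested genes and 8.86% of all. GGGCGG, the GC box, was in 66.2% of member promoters and in 65.2% of those of tested genes, and the ZBTB33 motif was in 1.54% and 1.09%. The stretches below show a motif with 25 bases on each side, 5′ to 3′ on the gene's strand, in members called higher in TNBS PF (Ran, Lsg1, Gar1) and in members that were not called (Nmd3, Rexo2, Bms1). Capitals mark the motif. No window overlaps an annotated exon, and CTTCCGG is CCGGAAG on the opposite strand. The windows are at chr5:129020013-129020068 (plus strand) for Ran, chr3:69721916-69721971 (plus) for Nmd3, chr9:48480744-48480799 (minus) for Rexo2, chr16:30587615-30587671 (minus) for Lsg1, chr3:129831408-129831464 (minus) for Gar1 and chr6:118419494-118419550 (minus) for Bms1.
Ran: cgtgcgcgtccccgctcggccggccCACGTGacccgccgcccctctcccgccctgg
Nmd3: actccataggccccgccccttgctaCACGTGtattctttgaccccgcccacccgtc
Rexo2: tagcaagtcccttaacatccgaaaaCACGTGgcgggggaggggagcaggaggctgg
Lsg1: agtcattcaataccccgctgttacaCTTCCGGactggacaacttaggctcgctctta
Gar1: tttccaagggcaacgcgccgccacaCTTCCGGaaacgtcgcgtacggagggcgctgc
Bms1: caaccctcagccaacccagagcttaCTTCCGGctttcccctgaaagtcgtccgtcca
The E-box stood in the promoters of 3 of the 19 matched members called higher (Utp4, Ran and Wdr43) and of 9 of the other 39. The ETS core stood in 7 of those 19 and in 15 of the other 39. A match describes letters in a window and says nothing of binding.

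The first comparison asked how fluid from TNBS-treated mice differed from fluid of control mice in its effect on the cells. Of the 70 members, 24 were higher in TNBS PF (34.3%) and none lower, by limma on log2(FPKM + 1) at a Benjamini-Hochberg adjusted p under 0.05 over all tested genes. Among all tested genes, 5.15% were called higher and 5.45% lower. The box C/D and H/ACA snoRNP proteins, the UTP complexes with casein kinase 2 and the 60S assembly factors supplied 18 of the 24. These roles hold 4, 4, 16 and 12 of the 70 members. RNase P and MRP subunits and exonucleases, with 7 and 6 members, supplied none. Thinned to equal depth, the libraries gave 22 members higher and none lower.

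The shifts were small and shared by most members. All 3 TNBS PF libraries lay above all 3 control PF libraries for 39 members (55.7%, against 13.6% of tested genes), and below them for 1, Utp14b (against 18.2% of tested genes). The log2 fold change was positive for 61 of 70 members, and for 44.3% of tested genes. Its median was 0.11 over the members and -0.01 over tested genes, on the log2(FPKM + 1) scale, which understates changes of genes near the lowest levels. An unadjusted p under 0.05, in either direction, was reached by 37 members (52.9%) and by 25.3% of tested genes.

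**Figure D1:**
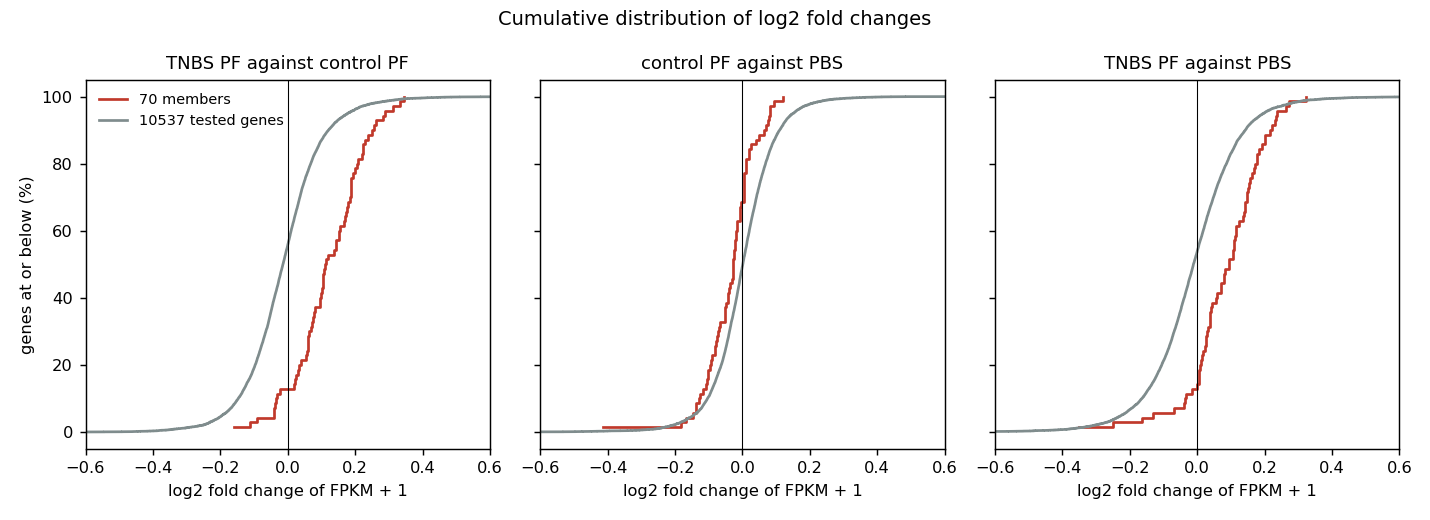
Cumulative share of genes (percent, vertical axis) at or below each log2 fold change of FPKM + 1 (horizontal axis) for the 70 members (red) and the 10537 tested genes (grey) in the 3 comparisons. The member curve lies to the right of the grey curve in both comparisons with TNBS PF, with medians of 0.11 against control PF and 0.09 against PBS, and slightly to its left in control PF against PBS, with a median of -0.03.

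Added over the 70 members, the level was 1507, 1506 and 1523 FPKM in the TNBS PF libraries, 1370, 1373 and 1366 FPKM in the control PF libraries and 1361, 1423 and 1402 FPKM in the PBS libraries. The TNBS PF libraries were the 3 highest, and control PF lay within the range of PBS. The group means were 1512 ± 9.71, 1370 ± 3.89 and 1395 ± 31.6 FPKM in the TNBS PF, control PF and PBS groups (SD, n = 3 each). TNBS PF had the highest group mean for 58 of the 70 members and for 33.5% of tested genes. Mean levels over all libraries ran from 1.44 FPKM in Mdn1 to 240 FPKM in Ran, with a median of 14.7 FPKM. The median coefficient of variation of a member within a group was 3.91% with TNBS PF, 3.80% with control PF and 4.25% with PBS.

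**Figure D2:**
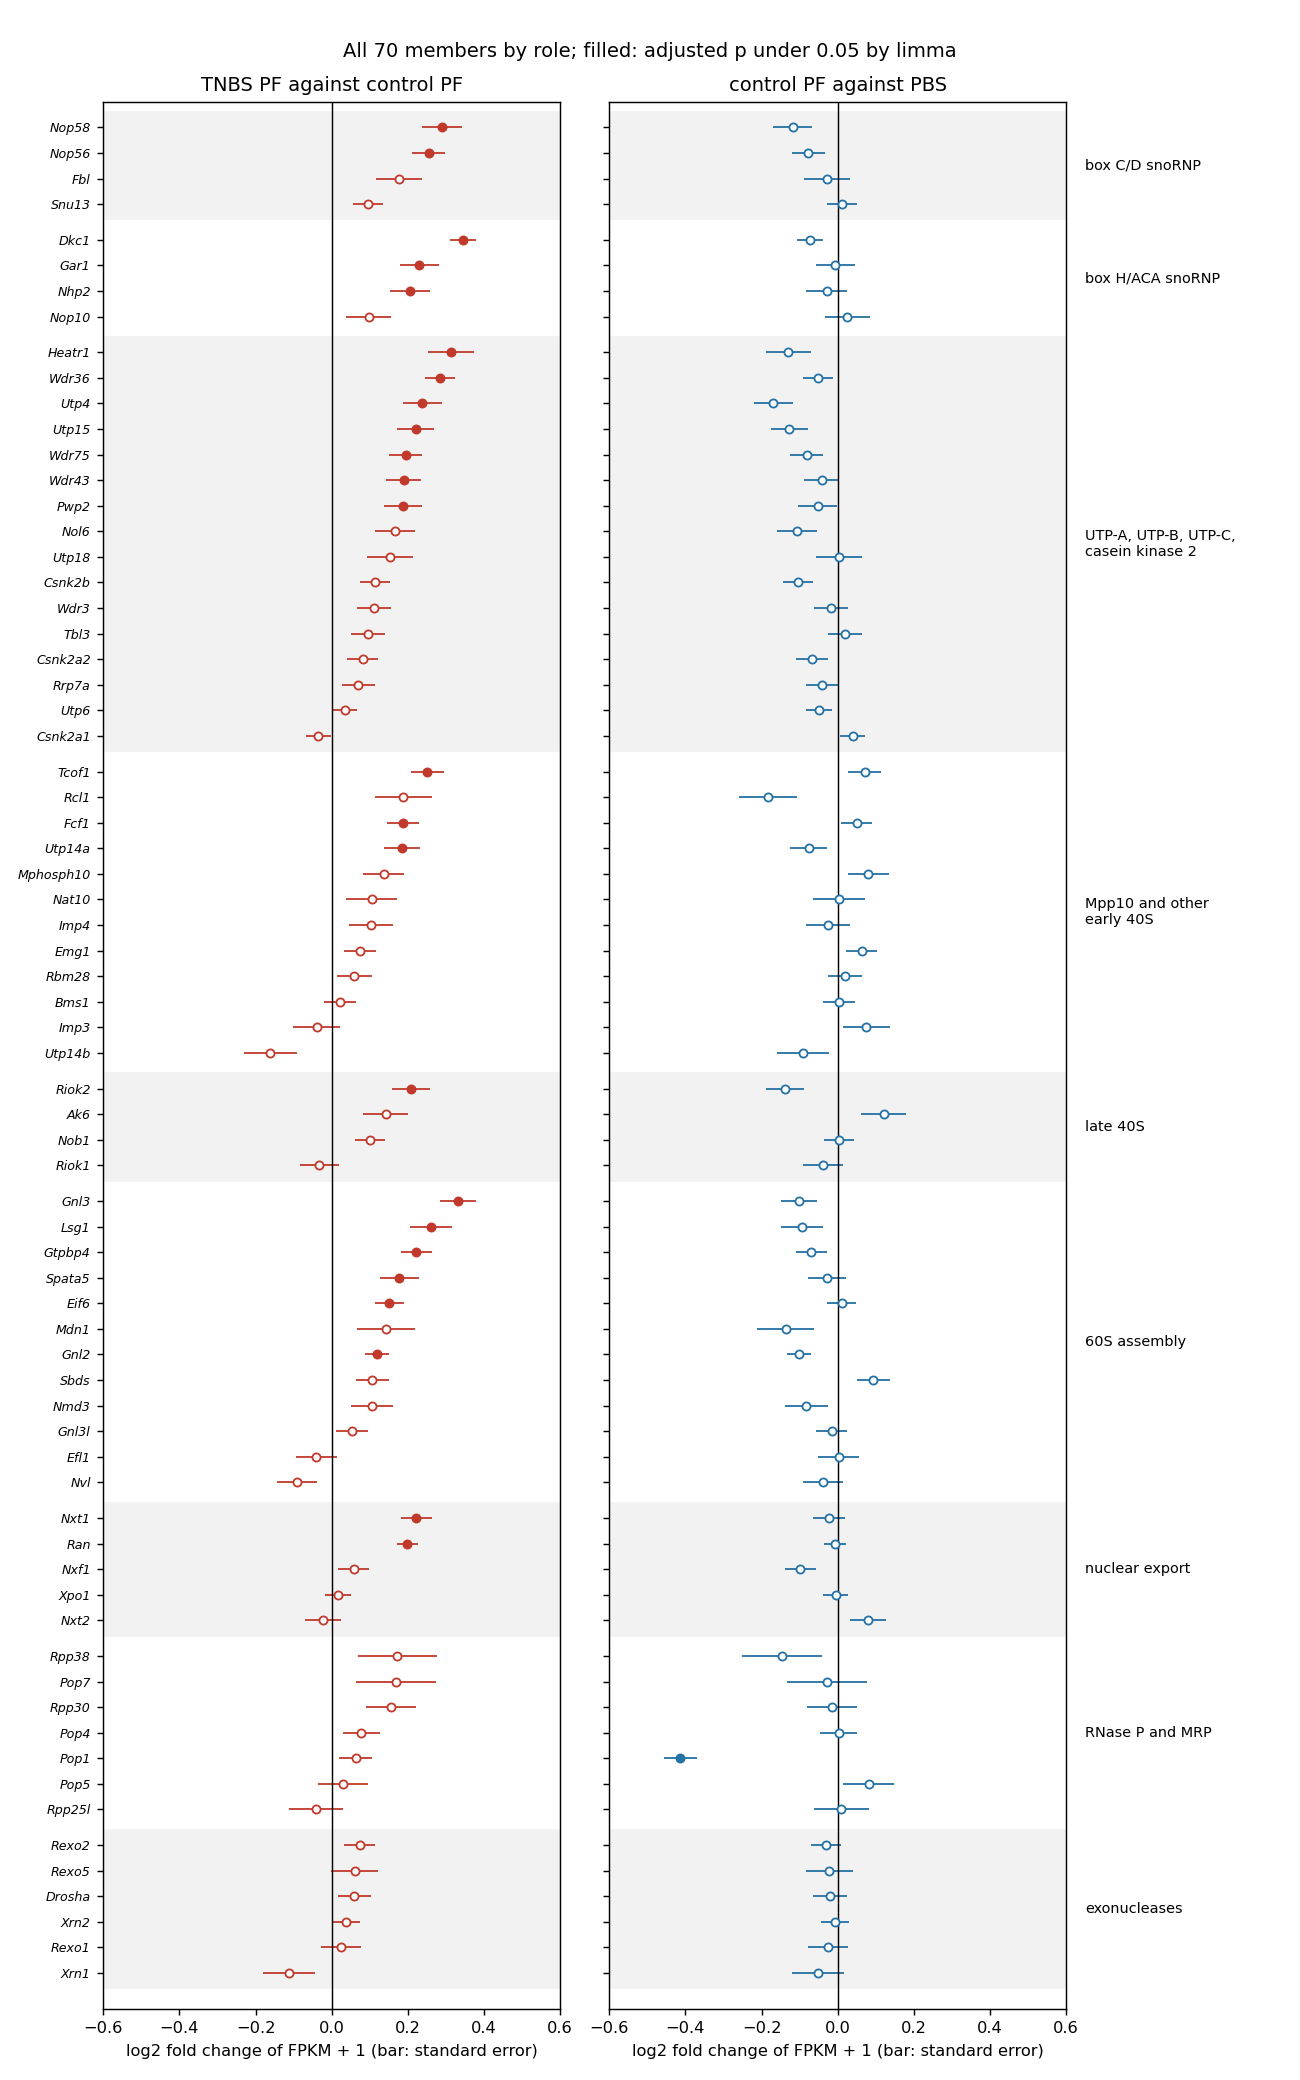
Log2 fold changes of FPKM + 1 (horizontal axes, points) with standard errors (bars) for all 70 members, grouped by role down the page, in TNBS PF against control PF (left) and control PF against PBS (right). Filled points passed an adjusted p under 0.05 by limma: 24 on the left, all above 0, and Pop1 alone on the right, below 0.

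Among the box C/D snoRNP proteins, which guide and carry out RNA methylation, 2 of 4 members rose. Nop58, a scaffold of the particle, was at 17.4, 17.8 and 18.1 FPKM in the TNBS PF libraries, at 14.1, 14.8 and 14.2 FPKM in the control PF libraries and at 14.2, 16.3 and 16.6 FPKM in the PBS libraries. Every TNBS PF value lay above every other value, and PBS spread from the control PF level upward. Against control PF the log2 fold change of Nop58 was 0.29 ± 0.05 (SE, limma adjusted p = 0.00341).

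Nop56, its partner scaffold, was at 41.1, 39.0 and 41.2 FPKM in the TNBS PF libraries, at 33.0, 35.8 and 32.5 FPKM in the control PF libraries and at 33.8, 36.1 and 37.0 FPKM in the PBS libraries. TNBS PF stood above both other groups, which overlapped, and Nop56 rose by 0.26 ± 0.04 against control PF (adjusted p = 0.00255 by limma). Fbl, fibrillarin, the methyltransferase itself, was at 24.9, 23.7 and 26.0 FPKM in the TNBS PF libraries, at 20.6, 22.8 and 22.3 FPKM in the control PF libraries and at 20.4, 24.7 and 22.1 FPKM in the PBS libraries. TNBS PF did not overlap control PF but overlapped PBS. Its log2 fold change of 0.18 ± 0.06 against control PF missed the threshold (limma adjusted p = 0.0813). Snu13, which binds the RNA's kink-turn and also serves the spliceosome, had the highest level of the class and a difference of 0.10 ± 0.04 (limma adjusted p = 0.154).

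Of the 4 box H/ACA snoRNP proteins, 3 rose. Without TNBS PF 2 only Dkc1 passed, 1 of 4. Dkc1 encodes dyskerin, the pseudouridine synthase of these particles and of telomerase RNA. Its values were 31.2, 29.5 and 29.9 FPKM in the TNBS PF libraries, 23.2, 23.6 and 23.8 FPKM in the control PF libraries and 24.2, 25.5 and 24.8 FPKM in the PBS libraries. The 3 groups did not overlap, with TNBS PF highest and control PF lowest. Dkc1 had the largest rise of any member, 0.35 ± 0.03 in log2 against control PF (limma adjusted p = 6.79e-05).

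Gar1, a core protein of the same particle, was at 26.8, 26.0 and 23.6 FPKM in the TNBS PF libraries, at 20.9, 22.0 and 21.8 FPKM in the control PF libraries and at 20.3, 22.8 and 21.9 FPKM in the PBS libraries. TNBS PF was above both other groups, which overlapped; the rise against control PF was 0.23 ± 0.05 (adjusted p = 0.0122, limma). Nhp2, the RNA-binding core protein, was at 37.9, 40.1 and 41.0 FPKM in the TNBS PF libraries, at 34.3, 34.2 and 34.2 FPKM in the control PF libraries and at 32.7, 38.9 and 33.6 FPKM in the PBS libraries. The control PF libraries were nearly equal and below all TNBS PF libraries, while PBS 2 reached into the TNBS PF range. Nhp2 rose by 0.21 ± 0.05 against control PF (limma adjusted p = 0.0272), a call made in 14 of 21 alternative settings and lost without TNBS PF 2, TNBS PF 3 or any 1 control PF library. The fourth member, Nop10, overlapped between groups and changed by 0.10 ± 0.06 (limma adjusted p = 0.337).

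**Figure D3:**
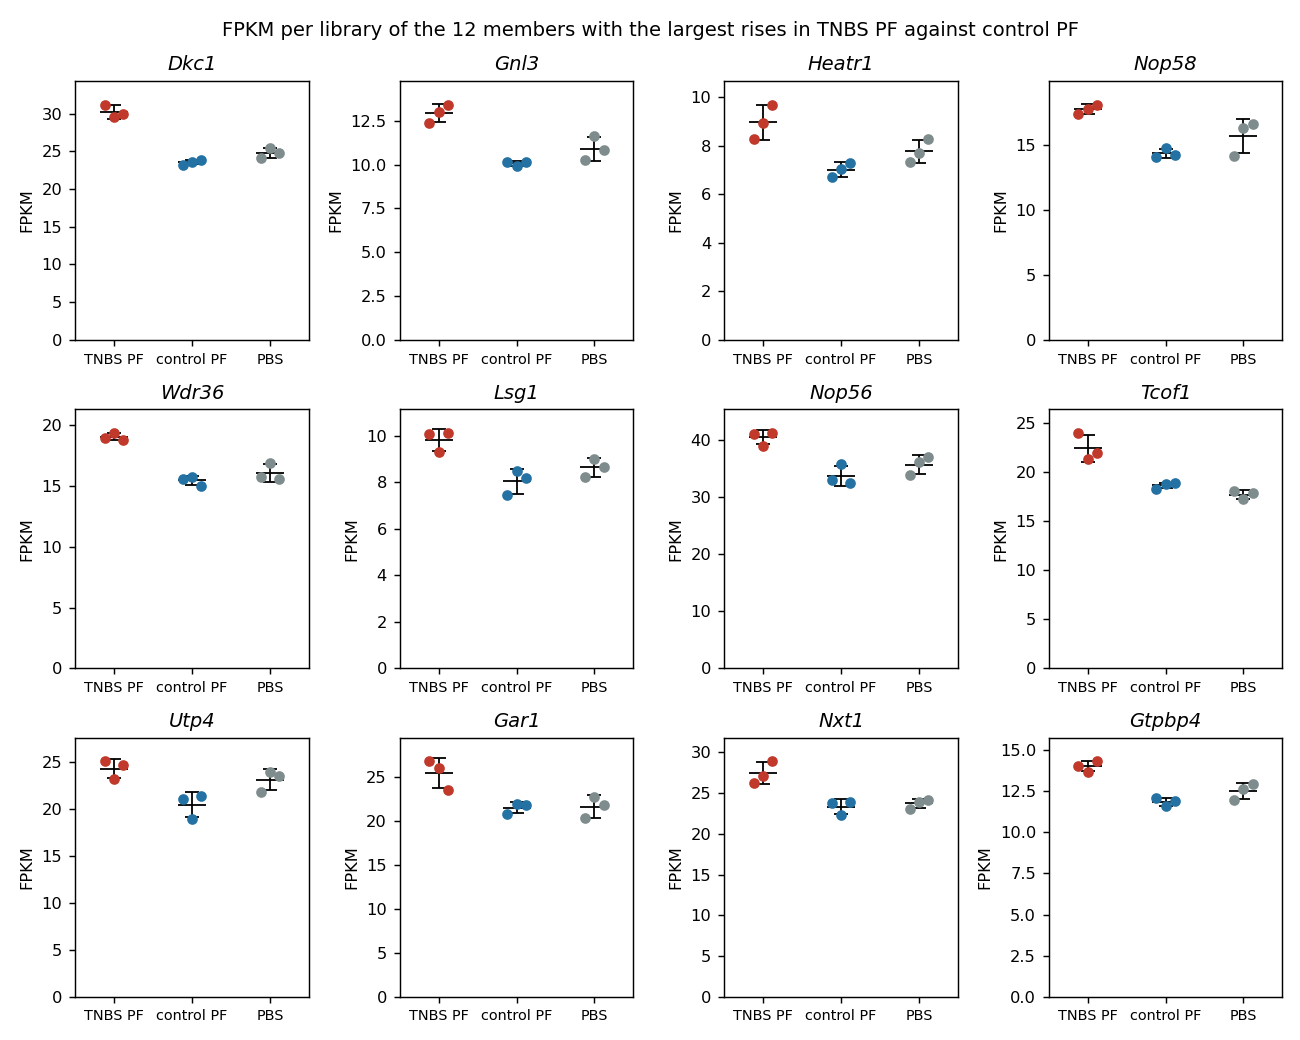
FPKM (vertical axes, from 0) in each of the 9 libraries (points) with group means and SD (bars) for the 12 members with the largest rises in TNBS PF against control PF. In each panel the 3 TNBS PF libraries lie above all 3 control PF libraries; PBS overlaps TNBS PF in Utp4, where PBS 2 was at 24.0 FPKM.

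The UTP-A, UTP-B and UTP-C complexes of the early 40S precursor, with casein kinase 2 counted among them, gave 7 risers among 16 members, or 4 without TNBS PF 3. The 7 were Heatr1, Wdr36, Utp4, Utp15, Wdr75, Wdr43 and Pwp2. They belong to UTP-A (Heatr1, Utp4, Utp15, Wdr75, Wdr43) and UTP-B (Wdr36, Pwp2). Heatr1, which in yeast also links rRNA transcription to processing, was at 8.26, 8.92 and 9.69 FPKM in the TNBS PF libraries, at 6.69, 7.03 and 7.30 FPKM in the control PF libraries and at 7.32, 7.71 and 8.26 FPKM in the PBS libraries. The lowest TNBS PF value nearly touched the highest PBS value. Heatr1 rose by 0.31 ± 0.06 against control PF (limma adjusted p = 0.00537).

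Wdr36, a WD-repeat protein of UTP-B, was at 19.0, 19.4 and 18.8 FPKM in the TNBS PF libraries, at 15.6, 15.8 and 15.0 FPKM in the control PF libraries and at 15.7, 16.9 and 15.5 FPKM in the PBS libraries. TNBS PF was separate from both other groups, which overlapped, and the rise against control PF was 0.28 ± 0.04 (limma adjusted p = 0.000638). Utp4, also called cirhin, was at 25.1, 23.2 and 24.7 FPKM in the TNBS PF libraries, at 21.1, 18.9 and 21.4 FPKM in the control PF libraries and at 21.9, 24.0 and 23.5 FPKM in the PBS libraries. Here control PF was the group that stood apart, below both others. Utp4 differed by 0.24 ± 0.05 between TNBS PF and control PF (limma adjusted p = 0.00973) and by 0.07 ± 0.05 between TNBS PF and PBS (limma adjusted p = 0.387). Csnk2b, the regulatory subunit of casein kinase 2 and the most abundant member of the role, was at 39.0, 42.2 and 39.2 FPKM in the TNBS PF libraries, at 37.4, 36.1 and 37.5 FPKM in the control PF libraries and at 41.3, 40.1 and 38.2 FPKM in the PBS libraries. Its control PF values were the lowest, but the difference of 0.11 ± 0.04 from TNBS PF missed the threshold (adjusted p = 0.0824, limma).

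The Mpp10 complex and other early 40S factors gave 3 risers among 12 members, or 2 without any 1 TNBS PF or control PF library. The 3 were Tcof1, Fcf1 and Utp14a, of which Utp14a was called in 15 of 21 alternative settings. Tcof1 encodes treacle, which couples RNA polymerase I transcription with processing of its product. Its values were 24.0, 21.4 and 21.9 FPKM in the TNBS PF libraries, 18.4, 18.8 and 18.9 FPKM in the control PF libraries and 18.1, 17.3 and 17.9 FPKM in the PBS libraries. The 3 groups did not overlap, with PBS lowest. Tcof1 rose by 0.25 ± 0.04 against control PF (adjusted p = 0.00255 by limma).

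Fcf1, an endonuclease that cuts the precursor before the 18S sequence, was at 46.3, 43.9 and 44.8 FPKM in the TNBS PF libraries, at 38.1, 40.4 and 39.7 FPKM in the control PF libraries and at 38.1, 40.2 and 35.9 FPKM in the PBS libraries. TNBS PF lay above both other groups, which overlapped. Fcf1 rose by 0.19 ± 0.04 against control PF (limma adjusted p = 0.0116). Of the late 40S factors, 1 of 4 rose, the kinase Riok2, whose call was lost without TNBS PF 1, TNBS PF 2, control PF 1 or control PF 2. It was at 15.1, 15.0 and 13.3 FPKM in the TNBS PF libraries, at 12.1, 12.3 and 12.7 FPKM in the control PF libraries and at 14.0, 14.0 and 13.2 FPKM in the PBS libraries. TNBS PF and PBS overlapped, and both lay above control PF; the difference between TNBS PF and control PF was 0.21 ± 0.05 (limma adjusted p = 0.0173). Nob1, the endonuclease that makes the mature end of 18S rRNA, did not overlap between TNBS PF and control PF, but its difference of 0.10 ± 0.04 missed the threshold (limma adjusted p = 0.123).

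The 60S assembly factors gave 6 risers among 12 members, or 3 without any 1 TNBS PF library or without control PF 3. Of the 6, 5 (Gnl3, Lsg1, Gtpbp4, Spata5 and Gnl2) are GTPases or ATPases of the assembly line. So are Mdn1, Nvl, Gnl3l and Efl1, which have the same role and were not called. Gnl3 encodes nucleostemin, a nucleolar GTPase first described in stem cells. Its values were 12.4, 13.01 and 13.4 FPKM in the TNBS PF libraries, 10.1, 9.90 and 10.2 FPKM in the control PF libraries and 10.2, 11.6 and 10.8 FPKM in the PBS libraries. The groups did not overlap, in the order TNBS PF, PBS, control PF. Gnl3 rose by 0.33 ± 0.05 against control PF (limma adjusted p = 0.000804).

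Lsg1, the cytoplasmic GTPase that releases the export adaptor Nmd3, was at 10.1, 9.28 and 10.1 FPKM in the TNBS PF libraries, at 7.45, 8.48 and 8.19 FPKM in the control PF libraries and at 8.22, 9.02 and 8.68 FPKM in the PBS libraries. TNBS PF was above both other groups, which overlapped, with a rise of 0.26 ± 0.06 against control PF (limma adjusted p = 0.00921). Gtpbp4, a nucleolar GTPase, was at 14.0, 13.7 and 14.3 FPKM in the TNBS PF libraries, at 12.1, 11.6 and 11.9 FPKM in the control PF libraries and at 11.96, 12.6 and 12.9 FPKM in the PBS libraries. Again TNBS PF alone stood apart, and Gtpbp4 rose by 0.22 ± 0.04 (limma adjusted p = 0.00388). The sixth riser, Eif6, keeps immature 60S subunits from joining 40S subunits, and rose by 0.15 ± 0.04 (adjusted p = 0.0222, limma; lost without any 1 TNBS PF library or without control PF 3). Nmd3 itself was at 8.16, 8.23 and 8.25 FPKM in the TNBS PF libraries, at 7.45, 7.83 and 7.42 FPKM in the control PF libraries and at 7.28, 8.35 and 8.62 FPKM in the PBS libraries. TNBS PF and control PF did not overlap, but the difference of 0.11 ± 0.06 missed the threshold (limma adjusted p = 0.264).

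Of 5 nuclear export members, 2 rose. Ran, the GTPase that gives nuclear transport its direction, is the most abundant member. It was at 262.2, 263.5 and 260.5 FPKM in the TNBS PF libraries, at 230.6, 227.6 and 226.5 FPKM in the control PF libraries and at 222.5, 237.1 and 228.2 FPKM in the PBS libraries. All TNBS PF values were above all others, and control PF fell inside the PBS range. Ran rose by 0.20 ± 0.03 against control PF (limma adjusted p = 0.000707).

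Nxt1, a partner of the mRNA export receptor Nxf1, was at 26.3, 27.2 and 28.9 FPKM in the TNBS PF libraries, at 23.8, 22.4 and 23.9 FPKM in the control PF libraries and at 23.1, 24.0 and 24.2 FPKM in the PBS libraries. Control PF and PBS overlapped, TNBS PF lay above both, and Nxt1 rose by 0.22 ± 0.04 (limma adjusted p = 0.0045). Xpo1, the exportin that carries both subunits, was at 63.0, 61.4 and 60.6 FPKM in the TNBS PF libraries, at 61.99, 60.7 and 59.95 FPKM in the control PF libraries and at 58.3, 62.1 and 63.1 FPKM in the PBS libraries. The groups overlapped throughout, with a difference of 0.02 ± 0.03 between TNBS PF and control PF (limma adjusted p = 0.796).

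None of the 7 RNase P and MRP subunits and none of the 6 exonucleases passed the threshold between TNBS PF and control PF, and their median log2 fold changes were 0.08 and 0.05. An unadjusted p under 0.05 was reached by 1 of the 7 and 0 of the 6, and voom on recovered fragments called 0 in both roles; without control PF 2 or control PF 3, 1 of the 7 was called higher. RNase MRP cuts the precursor between its 18S and 5.8S parts, and RNase P trims tRNA. Pop4, the most abundant subunit, was at 19.8, 19.1 and 20.2 FPKM in the TNBS PF libraries, at 18.5, 20.1 and 17.3 FPKM in the control PF libraries and at 19.0, 18.7 and 18.0 FPKM in the PBS libraries. Control PF 2 lay within the TNBS PF range, and the difference was 0.08 ± 0.05 (limma adjusted p = 0.348). Xrn2, a nuclear exonuclease that trims rRNA ends, was at 43.0, 44.7 and 43.5 FPKM in the TNBS PF libraries, at 41.7, 43.8 and 42.4 FPKM in the control PF libraries and at 41.1, 42.6 and 44.8 FPKM in the PBS libraries. The groups overlapped, with a difference of 0.04 ± 0.04 (limma adjusted p = 0.561). Drosha, better known for microRNA processing, was in the same position, with 0.06 ± 0.04 (limma adjusted p = 0.442).

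The second comparison asked what fluid of control mice did relative to saline. Of the 70 members, none was higher in control PF (1.02% of tested genes) and 1 was lower (1.14% of tested genes), Pop1, the large protein subunit of RNase P and MRP. At an unadjusted p under 0.05 there were 9 members (12.9%), all of them lower in control PF, against 15.6% of tested genes in both directions together. A positive log2 fold change was seen in 22 of 70, against 50.5% of tested genes, so the members leaned lower in control PF than in PBS. The median was -0.03 over the members and 0.00095 over tested genes. Pop1 was at 13.8, 13.3 and 13.6 FPKM in the TNBS PF libraries, at 13.2, 12.8 and 12.8 FPKM in the control PF libraries and at 16.4, 18.3 and 18.05 FPKM in the PBS libraries. Both fluids gave values below all PBS values, TNBS PF slightly above control PF. Pop1 fell by 0.41 ± 0.04 in control PF against PBS (limma adjusted p = 0.00043) and by 0.35 ± 0.04 in TNBS PF against PBS (limma adjusted p = 0.000175). The PBS libraries are shared by these 2 comparisons.

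The third comparison set TNBS PF against saline. Of the 70 members, 18 were higher (25.7%, against 7.8% of tested genes) and 2 lower (against 8.88% of tested genes), Pop1 and Utp14b. The median was 0.09 over the members and -0.01 over tested genes, and 60 of 70 members had a positive log2 fold change, against 46.1% of tested genes. This comparison shares the TNBS PF libraries with the first. With libraries thinned to equal depth 17 members were higher and 2 lower; without TNBS PF 3, or without PBS 1, 11 were higher and 2 lower.

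By role, snoRNP proteins gave the same counts as against control PF, 2 of 4 for box C/D and 3 of 4 for box H/ACA. The UTP complexes gave 2 of 16, the other early 40S factors 4 of 12, the late 40S factors 1 of 4, the 60S factors 4 of 12 and the export genes 2 of 5. Several of these counts rest on single libraries. Without TNBS PF 1, TNBS PF 3 or PBS 1, box C/D gave 0 of 4 and the other early 40S factors 2 of 12, and without TNBS PF 2 box C/D gave 1 of 4. The UTP count was 1 without TNBS PF 3, control PF 1, control PF 2, PBS 1 or PBS 2, and 3 without TNBS PF 1 or PBS 3. The least stable calls against PBS were Wdr43, made in 9 of 21 alternative settings, Nhp2, in 11, and Nop58 and Emg1, in 12 each. The UTP-A members Utp4, Utp15, Wdr75 and Heatr1 had a PBS mean between those of the TNBS PF and control PF groups. That order was not particular to them. Other members had it too, among them Wdr43, Wdr36, Pwp2, Dkc1 and Gnl3. Tcof1 had the largest rise against PBS, 0.32 ± 0.04 (limma adjusted p = 0.000315), followed by Dkc1 with 0.27 ± 0.03 (limma adjusted p = 0.000197).

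Ak6, a nuclear kinase-like ATPase of late 40S maturation, was at 9.05, 9.19 and 8.29 FPKM in the TNBS PF libraries, at 8.50, 8.10 and 7.18 FPKM in the control PF libraries and at 7.30, 7.29 and 7.001 FPKM in the PBS libraries. TNBS PF lay above PBS and overlapped control PF, and the rise against PBS was 0.26 ± 0.06 (limma adjusted p = 0.00876). Mphosph10, the namesake of the Mpp10 complex, was at 15.7, 14.4 and 15.3 FPKM in the TNBS PF libraries, at 13.2, 14.6 and 13.2 FPKM in the control PF libraries and at 11.98, 13.5 and 13.2 FPKM in the PBS libraries. Its TNBS PF values cleared PBS only, with a rise of 0.22 ± 0.05 (limma adjusted p = 0.0147). Sbds, which with the GTPase Efl1 releases Eif6 from new 60S subunits, was at 38.5, 42.6 and 40.8 FPKM in the TNBS PF libraries, at 37.3, 36.8 and 38.9 FPKM in the control PF libraries and at 33.5, 35.2 and 37.0 FPKM in the PBS libraries. TNBS PF lay above PBS and overlapped control PF. Sbds rose by 0.20 ± 0.04 against PBS (limma adjusted p = 0.00749), and its difference from control PF was 0.11 ± 0.04 (limma adjusted p = 0.143).

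Utp14b, a retroposed copy of Utp14a known for its role in the mouse male germ line, was at 2.72, 2.585 and 2.82 FPKM in the TNBS PF libraries, at 3.20, 2.89 and 3.36 FPKM in the control PF libraries and at 3.05, 3.64 and 3.56 FPKM in the PBS libraries. TNBS PF was below both other groups. Utp14b fell by 0.25 ± 0.07 against PBS (limma adjusted p = 0.0246; called in 15 of 21 alternative settings, and not without TNBS PF 1, TNBS PF 2, PBS 2 or PBS 3) and differed by -0.16 ± 0.07 from control PF (limma adjusted p = 0.161). Its annotated exons share 244 bases on the same strand with Acsl3, a lipid metabolism gene at 25.8, 24.5 and 25.6 FPKM in the TNBS PF libraries, at 31.7, 31.1 and 34.2 FPKM in the control PF libraries and at 30.3, 31.7 and 32.1 FPKM in the PBS libraries. Acsl3 fell by 0.30 against PBS (limma adjusted p = 0.000351), and its part in the Utp14b values was not tested.

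**Figure D4:**
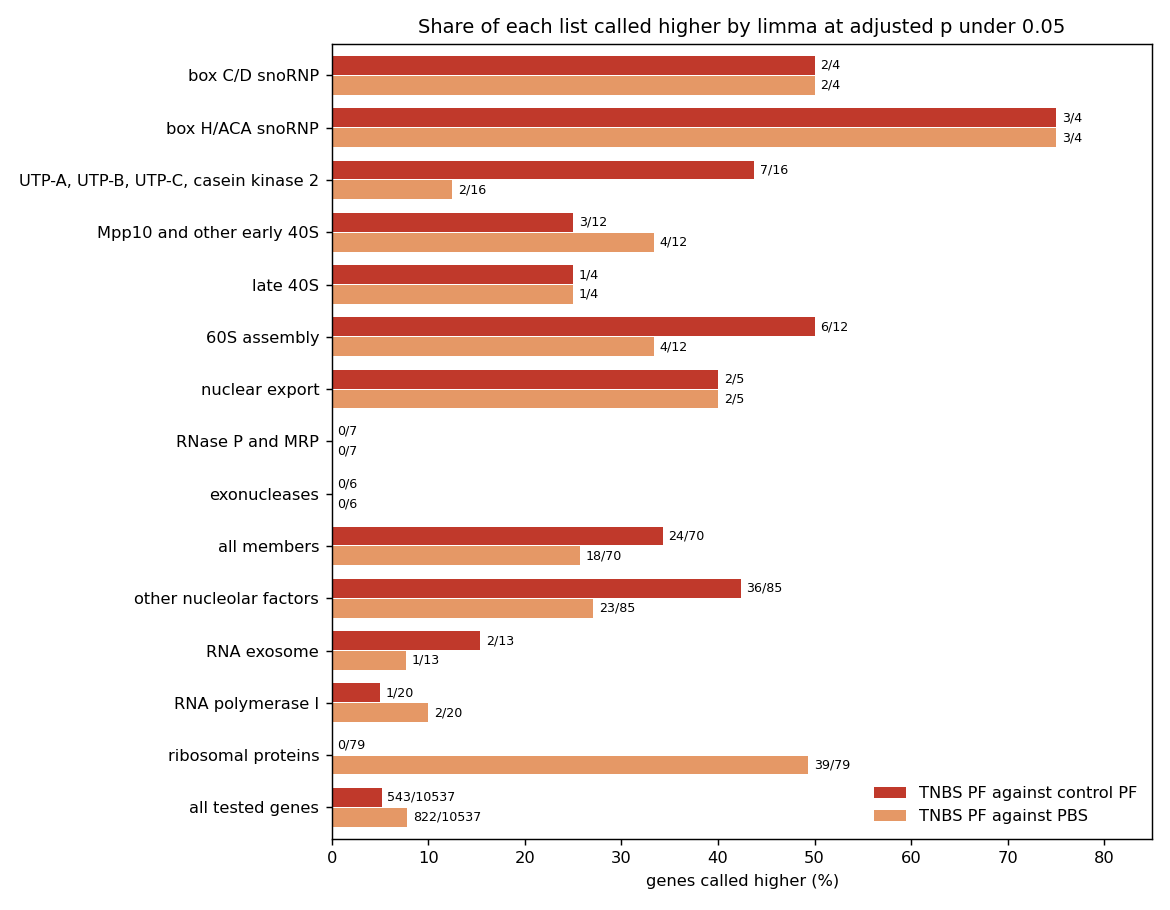
Percent of each list called higher by limma at an adjusted p under 0.05 (horizontal axis, from 0) in TNBS PF against control PF (red) and against PBS (orange), with called and tested genes beside each bar. Box H/ACA snoRNP proteins reach 3 of 4 in both comparisons, while ribosomal proteins stand at 0 of 79 against control PF and 39 of 79 against PBS. All tested genes stand at 5.15% against control PF and 7.8% against PBS.

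Genes that serve ribosome production outside the KEGG pathway were read from the same fit. Of 85 other nucleolar assembly factors, 36 rose in TNBS PF against control PF (42.4%, against 5.15% of tested genes). None fell (against 5.45% of tested genes), and the median was 0.15. Without TNBS PF 3 the count of risers was 22. Rrp12, a factor needed for export of both subunits in yeast, was at 4.35, 3.98 and 4.98 FPKM in the TNBS PF libraries, at 2.80, 3.23 and 3.17 FPKM in the control PF libraries and at 2.93, 3.40 and 3.21 FPKM in the PBS libraries. TNBS PF cleared both other groups, and Rrp12 rose by 0.42 ± 0.08 (limma adjusted p = 0.0037). Rpf2, which brings the 5S particle into the 60S precursor, rose by 0.37 ± 0.04 (limma adjusted p = 0.000225). Aen, a nuclease that sits in the nucleolus, rose by 0.36 ± 0.08 (limma adjusted p = 0.00987). Aen is known from apoptosis rather than from assembly, but is counted among the 85 and the 36. Against PBS, 23 of the 85 rose (27.1%, against 7.8% of tested genes) and none fell (against 8.88% of tested genes). The count of risers was 12 without TNBS PF 1 and 14 without TNBS PF 3 or PBS 1. In control PF against PBS 0 passed by limma, against 1.02% of tested genes called higher and 1.14% called lower. At an unadjusted p under 0.05, 4 were higher and 14 lower, against 15.6% of tested genes in both directions together. Voom called 1 lower.

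Of 20 RNA polymerase I transcription genes, which make the precursor, 1 rose against control PF (5%, near the 5.15% of tested genes). None fell (against 5.45% of tested genes). The riser was Polr2h, a subunit shared by all nuclear RNA polymerases, with 0.24 ± 0.06 (limma adjusted p = 0.0204). The median of the 20 was 0.07, and 15 had a positive log2 fold change, against 44.3% of tested genes. Polr2h lost its call without TNBS PF 1, TNBS PF 2 or any 1 control PF library. In TNBS PF against PBS, Polr2h and Polr2l rose (10%, against 7.8% of tested genes), and 16 of the 20 were positive, against 46.1% of tested genes. The RNA exosome, which trims the 5.8S end, gave 2 risers among 13 genes in TNBS PF against control PF (15.4%, against 5.15% of tested genes). They were Exosc2 with 0.17 ± 0.05 (limma adjusted p = 0.0318) and Dis3 with 0.17 ± 0.04 (limma adjusted p = 0.0152). The exosome count was 0 without TNBS PF 2 or control PF 2, and 1 without TNBS PF 1, TNBS PF 3 or control PF 3.

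Myc, the transcription factor with ribosome production among its best known targets, was at 40.4, 39.1 and 40.4 FPKM in the TNBS PF libraries, at 32.8, 32.7 and 31.5 FPKM in the control PF libraries and at 32.2, 33.6 and 34.6 FPKM in the PBS libraries. TNBS PF was above both other groups, which overlapped. Myc rose by 0.30 ± 0.03 against control PF (limma adjusted p = 0.000197) and by 0.25 ± 0.03 against PBS (limma adjusted p = 0.000442). Mxd4, a MAX partner that opposes MYC, was at 5.70, 5.33 and 5.34 FPKM in the TNBS PF libraries, at 7.06, 6.44 and 6.89 FPKM in the control PF libraries and at 6.97, 6.14 and 6.98 FPKM in the PBS libraries. TNBS PF was lowest without overlap, and Mxd4 fell by 0.27 ± 0.06 against control PF (limma adjusted p = 0.00899). The other 9 tested genes of the MYC and MAX list did not pass.

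The 79 tested cytosolic ribosomal proteins, the products that the members assemble, gave 0 calls by limma in either direction between TNBS PF and control PF. Among all tested genes 5.15% were called higher and 5.45% lower. The median of the 79 was 0.02. An unadjusted p under 0.05 was reached by 5 of them, all higher in TNBS PF, against 25.3% of tested genes in both directions together. Voom called 2 higher. Between TNBS PF and PBS 39 rose (49.4%, against 7.8% of tested genes) and none fell (against 8.88% of tested genes), with a median of 0.13. Between control PF and PBS 1 rose (1.27%, near the 1.02% of tested genes), Rpl41, with 0.23 ± 0.05 (limma adjusted p = 0.0304), and the median was 0.10. The median deviation of the 79 genes from the PBS mean was 0.14, 0.15 and 0.11 for the TNBS PF libraries, 0.12, 0.08 and 0.09 in the control PF libraries and -0.05, 0.08 and -0.02 in the PBS libraries. PBS 2 thus lay at the level of control PF for these genes. Without PBS 2, 60 of the 79 rose in TNBS PF against PBS and 33 in control PF against PBS. Without PBS 1 or PBS 3 the count in TNBS PF against PBS was 15 or 17, and without TNBS PF 1, 2 or 3 it was 20, 14 or 23. Rpl41 was the 1 gene called in control PF against PBS, and 0 were called there without PBS 1, PBS 3 or any 1 control PF library.

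**Figure D5:**
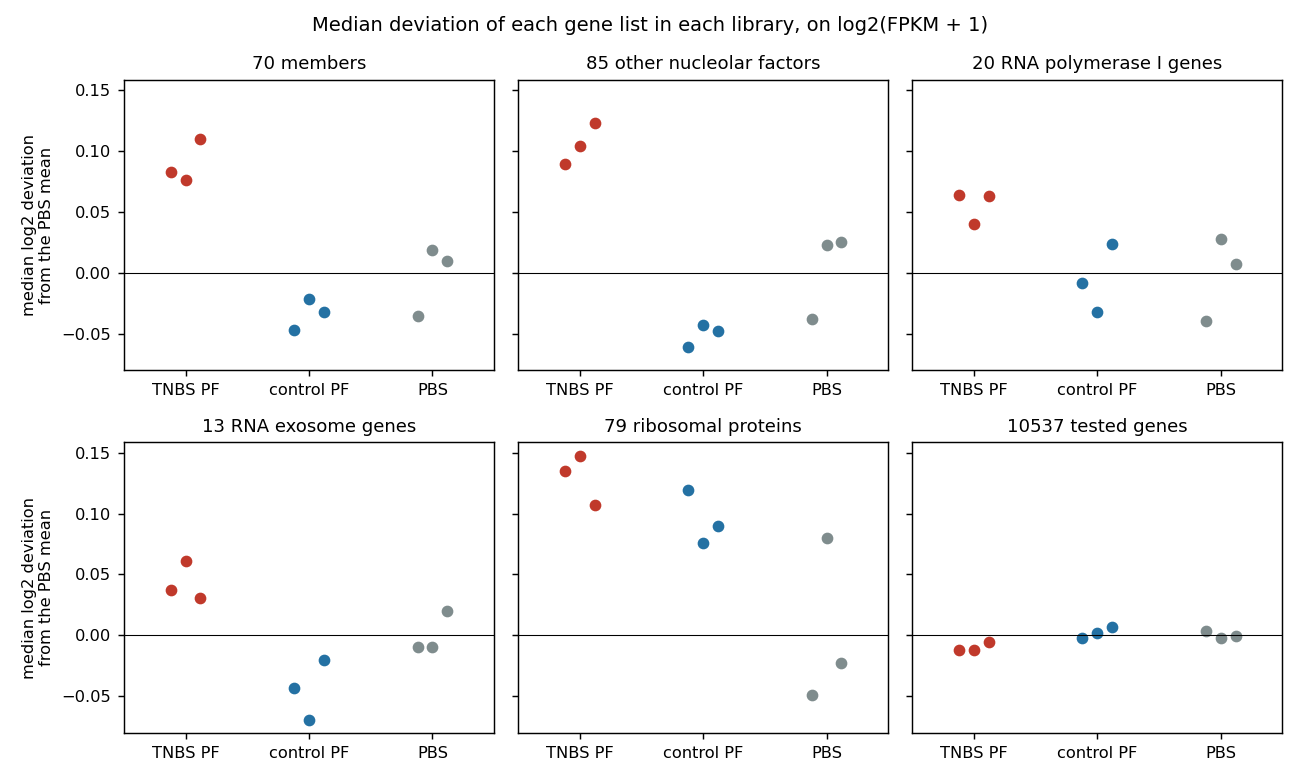
Median deviation from the PBS mean on log2(FPKM + 1) (vertical axes) of 5 gene lists and of all tested genes in each of the 9 libraries (points). The members lie at 0.08, 0.08 and 0.11 with TNBS PF, at -0.05, -0.02 and -0.03 with control PF and at -0.04, 0.02 and 0.01 with PBS, while the ribosomal proteins of TNBS PF (0.11 to 0.15) and control PF (0.08 to 0.12) overlap in part.

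The deposited annotation placed 55 members in the nucleolus, of which 20 rose in TNBS PF against control PF (36.4%). Of the other 15, 4 rose (26.7%). Members annotated to rRNA processing gave 11 risers of 32 (34.4%), and the others 13 of 38 (34.2%), nearly the same share. None fell. Among all tested genes 5.15% were called higher and 5.45% lower. The 8 annotated genes under the level rule were Rpp40, Nxf2, Rpp25, Nxf3, Nxf7, Fbll1, Rasl2-9 and 1700009N14Rik, and Nxf7 and Fbll1 were listed at 0 in all libraries. Just outside the rule was Rpp40, at 0.96, 0.96 and 1.22 FPKM in the TNBS PF libraries, at 0.69, 0.93 and 0.72 FPKM in the control PF libraries and at 0.91, 0.72 and 0.77 FPKM in the PBS libraries. Just inside it was Mdn1, the large ATPase of 60S assembly, at 1.43, 1.48 and 1.65 FPKM in the TNBS PF libraries, at 1.12, 1.30 and 1.43 FPKM in the control PF libraries and at 1.45, 1.68 and 1.40 FPKM in the PBS libraries.

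Some members share sequence with other genes, and whether counting used strand is not stated in these sources. Ran has the annotated copies Rasl2-9 and 1700009N14Rik, which were under 1 FPKM throughout, so part of their reads may have been assigned to either. Ak6 shares 56.5% of its exon length with Taf9, listed at a mean of 0.0591 FPKM, so the division of reads between both is uncertain. Small nucleolar RNA genes lie within annotated exons of Nop56, Nop58 and Gnl3, a set noted after their values were seen, and their part in these values was not tested.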

How the data were processed

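The authors deposited 1 table of FPKM per gene for all 9 libraries, with pathway annotation. Trimming used cutadapt 1.15 and the genome build was mm10, per the submitters' processing notes; for the aligner, the counter and the gene annotation, nothing is given in the sources used. RNA was extracted with Trizol, from 3 µg per library, per the labels' protocols. Multiplying the deposited FPKM by GENCODE M21 exon lengths (21902 genes matched, 57 did not) gave whole fragments within 0.01 for over 97.2% of the values checked, and from these the depth. Values with high fragment counts, such as those of Dkc1 and Ran, were outside this check.

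Genes that reached 1 FPKM in 3 or more libraries entered a fit with limma 3.58.1 in R 4.3.3 on log2(FPKM + 1), with a mean per group, all 9 libraries, a mean-variance trend and Benjamini-Hochberg adjustment over 10537 genes; the threshold was 0.05. The fit was tested on simulated data. Alternatives covered pseudocounts of 0.1 and 0.5, filters, scalings, the samples in the fit, the trend, the replicate block and leaving out each library; limma voom on recovered fragments and thinning to equal depth were added after the data were seen. Same-numbered libraries of different groups had deviations that correlated between -0.0978 and 0.0746.

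The members and gene lists were chosen with earlier results of these data known. Named were, per comparison, up to 12 members with the largest changes each way among called members whose groups do not overlap; the most abundant member of each role; Fbl, Nop56, Dkc1, Gnl3, Heatr1, Nob1, Xpo1, Nmd3 and Sbds; up to 3 genes of each other list; and members next to the level rule. Other names (among them Eif6, Drosha, Acsl3 and those given only to list a count) were added after their values were seen. Ribosomal proteins were taken from the KEGG ribosome annotation and gene symbols, since the table holds no description column. A marker gene of another cell type is not reported here. Sequences came from RefSeq (GRCm38.p6). Figures used matplotlib 3.10.9.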

Additional observations from a re-analysis of the deposited data

How the results depend on the processing

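Over 21 alternatives no named member changed direction where it was called. Of the 24 members called between TNBS PF and control PF, 13 were called in every alternative (Gtpbp4, Lsg1, Tcof1, Nop58, Nop56, Ran, Dkc1, Nxt1, Wdr36, Utp4, Utp15, Gnl3 and Heatr1). Gar1 lost its call without TNBS PF 1 or TNBS PF 2 and Fcf1 without TNBS PF 1, and Spata5, Gnl2, Nhp2 and Pwp2 were called in 11, 12, 14 and 14 alternatives. Of the 20 called between TNBS PF and PBS, 12 were called in every alternative, Wdr43, Nhp2, Nop58 and Emg1 were called in 9, 11, 12 and 12, and Nop56, Gtpbp4 and Mphosph10 lost their calls without TNBS PF 1, TNBS PF 3 or PBS 1; Pop1 was called in all 21 in control PF against PBS. Median-ratio scaling moved the member median to 0.13 against control PF and 0.11 against PBS, and the mean summed level to 1523.5 FPKM in TNBS PF and 1363 FPKM in control PF; TPM scaling put the sums at 5565, 5064 and 5214 TPM in TNBS PF, control PF and PBS. All genes called between TNBS PF and control PF were 543 higher and 574 lower, but 679 and 442 under median-ratio scaling; between TNBS PF and PBS they were 822 and 936, but 1047 and 762 under median-ratio scaling and 624 and 1153 under TPM scaling. Genes called between control PF and PBS were 227, against 103 without a filter, 117 without the variance trend and 374 with voom; the cause was not tested.

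Leaving out 1 library, genes called ranged from 660 to 1254 for TNBS PF against control PF (all libraries: 1117; at most 737 without any 1 of the TNBS PF libraries, control PF 2 or control PF 3), from 115 to 301 for control PF against PBS (all libraries: 227; at most 138 without any 1 of the control PF libraries or PBS 3) and from 1148 to 1737 for TNBS PF against PBS (all libraries: 1758; lowest without TNBS PF 3). Members called ranged from 16 to 25, from 1 to 2 and from 13 to 20 in the same order of comparisons; the lowest of the last came without TNBS PF 3 and without PBS 1, and the second lower member in control PF against PBS appeared without PBS 1. The labels state no pairing of the libraries by replicate number. Of the libraries, 5 of 9 correlated best with their own number in another group, which cannot decide whether they were paired. With the replicate block, members called were 22, 1 and 21 and genes called 906, 169 and 1537. The 39 ribosomal proteins called higher in TNBS PF against PBS were 12 without the variance trend, 14 (and 1 lower) with quantile normalization and 16 without a filter; in control PF against PBS voom called 22, against 1. FPKM carries no error of its own, and members near 1 FPKM rest on fewer fragments.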
